A study of Danio rerio with 2 samples.

Results

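The 10 genes described here are the zebrafish neutrophil genes mpx, lyz, lect2l, npsn, ncf1, ncf4, cybb, csf3r, hck and itgb2, found by symbol among the 33733 genes of 1 deposited expression table. The table holds a single RNA-seq library from lri25 homozygotes and a single library from wild-type larvae of the same clutches. Each was made from total RNA of 20 pooled whole larvae of the AB/TL strain at 5 days post fertilisation (dpf). Which gene lri25 alters is not given in the labels, and no treatment is given for either group. With 1 library per group no difference has a replicate check, no test was run on it, and each value describes these pools alone. The members are known neutrophil genes, chosen by their FPKM in these same libraries in so far as the opposite directions of mpx and lyz were already known. All their values are therefore given as a description.

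Neutrophils are short-lived phagocytes that reach infected or injured tissue first. They kill microbes with enzymes stored in granules and with reactive oxygen made by the phagocyte NADPH oxidase, and the cytokine granulocyte colony-stimulating factor drives their production. In zebrafish larvae, mpx and lyz are the usual genes for marking them, and fish that carry their promoters on fluorescent reporters are widely used to watch neutrophils migrate. Several of the other members are shared with macrophages, so the label covers genes of neutrophil function and not genes confined to that cell.

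Both marker genes were detected in both libraries, and none of the 10 was listed at 0. Levels are in FPKM, fragment numbers scaled to transcript length and to library size, which allows genes to be compared with each other. Differences are log2((mutant FPKM + 1)/(wild-type FPKM + 1)), a scale that shrinks the differences of weakly expressed genes. A gene was compared if either library had it at 1 FPKM or more, which kept 9 of the 10 members and left out csf3r. A gene counted as higher or lower when the difference reached 1, a 2-fold difference on that scale. In whole larvae, fewer cells of a type and less RNA per cell cannot be told apart.

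In these libraries the neutrophil genes did not move as a block. Lysozyme was lower in the mutant library, while myeloperoxidase and lect2l were higher. The opposite directions of mpx and lyz were known when the members were chosen, so this split is only described. Genes for nephrosin, the integrin beta chain and the oxidase subunits ncf1 and cybb lay close together in the libraries. Of the 9 members compared, 2 were at least 2-fold higher in the mutant and 1 was lower by as much. Among all 20256 genes compared, 6.08% passed 2-fold upwards in the mutant and 7.12% downwards. The median difference was 0.02 over these 9 members and -0.01 over all genes compared.

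**Figure D1:**
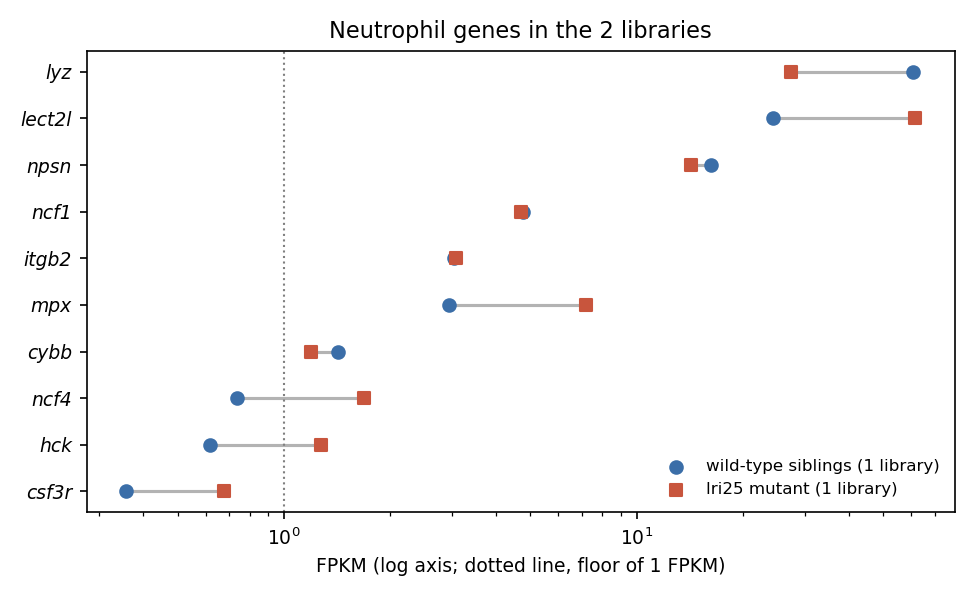
FPKM of each of the 10 neutrophil genes on a log axis, with 1 point for the wild-type sibling library and 1 square for the lri25 mutant library. The square of lyz lies left of its point, those of mpx and lect2l lie to the right, and ncf1 and itgb2 almost coincide.

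Among the secreted and granule proteins, lyz encodes a C-type lysozyme that cuts the peptidoglycan of bacterial walls. This gene (ENSDARG00000057789, build Zv9, chromosome 24, 24643811 to 24646748) stood at 60.9 FPKM in the wild-type library and 27.4 FPKM in the mutant. That made it 2.22-fold lower in the mutant, a difference of -1.12. In the wild type lyz was the most abundant of the 10 genes, and in the mutant it was second. In zebrafish larvae lyz is also expressed by some macrophages.

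Myeloperoxidase, encoded by mpx, turns hydrogen peroxide and chloride into hypochlorous acid inside the phagosome. The mpx gene (ENSDARG00000019521, chromosome 10, 6807370 to 6814445) stood at 2.93 FPKM in the wild-type library and 7.21 FPKM in the mutant. The mutant value was 2.46 times the wild-type value, and the difference of 1.06 lay just past the 2-fold line. Its level was far below that of lyz in both libraries, but the gap was narrower in the mutant. The FPKM of lyz was 20.7 times that of mpx in the wild-type library and 3.81 times in the mutant, so the ratio between the 2 standard markers was 5.45 times larger in the wild-type library.

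The protein of lect2l resembles human leukocyte cell-derived chemotaxin, named for attracting neutrophils and in mammals secreted mainly by the liver. The gene (ENSDARG00000033227, chromosome 14, 38206899 to 38208441) stood at 24.4 FPKM in the wild-type library and 61.6 FPKM in the mutant. This was 2.53 times the wild-type level, a difference of 1.30, and the furthest from 0 of the 10 members. In the mutant library lect2l took the first place that lyz held in the wild type. A further row of the table, LECT2 (4 of 4), was listed at 0 in both libraries at a locus shared by 6 genes. Whether reads of related copies were divided between rows is not known.

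Hepatocyte marker genes were set beside lect2l. Of 10 rows of that list compared, 2 were at least 2-fold higher in the mutant, 0 lower, and 9 lay above 0, with a median difference of 0.56. Their summed level, over all 11 rows matched, was 7547 FPKM in the wild-type library and 11564 FPKM in the mutant. The 2 higher were fgb, at 87.6 and 220 FPKM, and cp, at a shared locus, at 24.4 and 160 FPKM. The gene serpina1l, at 214 and 429 FPKM, fell just short with a difference of 0.998. It passed 2-fold with a pseudocount of 0.1 FPKM and under both rescalings. Over all genes compared, 6.08% were 2-fold or more higher. The liver fatty acid binding protein gene fabp10a was at 786 and 1160 FPKM. The transthyretin gene ttr, the 1 row compared that lay below 0, was at 98.8 and 77.8 FPKM. The only row at 0 was 1 of the rows named hp, in both libraries. The part of liver transcripts in the lect2l value was not tested.

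Nephrosin, a metalloprotease of the astacin family first described in fish and expressed in zebrafish neutrophils, is encoded by npsn. The gene (ENSDARG00000010423, chromosome 7, 40045583 to 40051579) stood at 16.3 FPKM in the wild-type library and 14.3 FPKM in the mutant, a difference of -0.18. Only lyz and lect2l were more abundant among the 10 genes, in both libraries. Thus the secreted and granule members were lower (lyz), near equal (npsn) and higher (mpx, lect2l) in the same pair of pools.

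**Figure D2:**
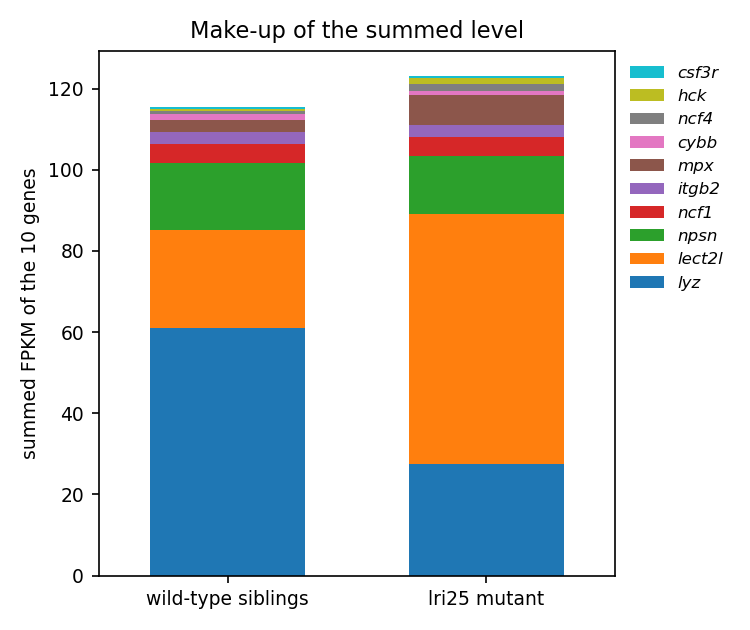
Stacked bars of the FPKM of the 10 neutrophil genes in each library, starting at 0, with 1 colour per gene. The bars reach 115 FPKM in the wild-type library and 123 FPKM in the mutant, and the largest block is lyz in the first and lect2l in the second.

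The sum over the 10 genes hid these differences. It came to 115 FPKM in the wild-type library and 123 FPKM in the mutant, a ratio of 1.07. Lysozyme supplied 52.8% of that sum in the wild-type library and 22.3% in the mutant, and lect2l supplied 21.1% and 50.0%. Without lyz the ratio of sums was 1.75, without lect2l it was 0.676, and without both it was 1.13. Whether the summed level was higher or lower in the mutant therefore depended on which of these genes was counted.

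Killing by reactive oxygen relies on the NADPH oxidase, a membrane-bound catalytic core that is switched on when cytosolic subunits join it. The catalytic subunit gene cybb (ENSDARG00000056615, chromosome 11, 30671995 to 30695011) stood at 1.42 FPKM in the wild-type library and 1.19 FPKM in the mutant, a difference of -0.15. The organiser subunit gene ncf1 (ENSDARG00000033735, chromosome 5, 64495160 to 64508316) stood at 4.77 and 4.71 FPKM, a difference of -0.01. Neither came near 2-fold, and ncf1 was almost level between the pools.

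The other oxidase member, ncf4, encodes a cytosolic subunit that binds phosphoinositides on the phagosome. Its gene (ENSDARG00000040812, chromosome 22, 31740421 to 31823776) stood at 0.738 FPKM in the wild-type library and 1.68 FPKM in the mutant. The plain ratio was 2.28, but the difference with the pseudocount was 0.63, short of the 2-fold line. With a pseudocount of 0.1 FPKM the difference was 1.09 and passed it. This is the 1 member whose locus is shared, with the parvalbumin gene pvalb7, and its level is less certain for that reason.

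Among the oxidase genes outside the members, cyba and rac2 lay higher in the mutant without reaching 2-fold. The gene cyba, for the small membrane partner of cybb, was at 23.4 and 36.5 FPKM, a difference of 0.62. The gene rac2, for the leukocyte GTPase that activates the complex, was at 28.2 and 44.4 FPKM, a difference of 0.63. Of 5 oxidase genes compared, 0 passed 2-fold in either direction, beside 6.08% higher and 7.12% lower of all genes compared. With a pseudocount of 0.1 FPKM 1 was higher, ncf4, beside 9.21% higher and 11% lower of all genes. That gene passed the floor only through the mutant library, so nothing is read from these counts. By default the median difference was 0.62, but 0.30 without ncf4 at its shared locus and 0.22 with a pseudocount of 5 FPKM. Both cyba and rac2 stood well above the 3 oxidase members in FPKM, and both are also expressed in other cells.

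Of the receptor, kinase and adhesion members, csf3r encodes the receptor for granulocyte colony-stimulating factor. It (ENSDARG00000045959, chromosome 16, 4049463 to 4072378) had the lowest level of the 10 in both libraries, 0.357 FPKM in the wild-type library and 0.678 FPKM in the mutant. With both values under 1 FPKM it stayed out of the comparison, and its difference of 0.31 is printed for completeness. The row named CSF3, a ligand of this receptor, was at 1.09 and 1.70 FPKM.

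The Src-family kinase gene hck, which acts downstream of integrins and Fc receptors in phagocytes, lay almost as low. The gene (ENSDARG00000058647, chromosome 23, 7579508 to 7619554) stood at 0.617 FPKM in the wild-type library and 1.27 FPKM in the mutant. The plain ratio was 2.07 and the difference 0.49. It passed the floor only through its mutant value, as ncf4 did.

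The common beta chain of leukocyte integrins, which lets neutrophils adhere to vessel walls, is encoded by itgb2. The gene (ENSDARG00000016939, chromosome 9, 46027572 to 46051049) stood at 3.04 FPKM in the wild-type library and 3.08 FPKM in the mutant, a difference of 0.02. In the wild type itgb2 and mpx stood at nearly the same level, with mpx at 0.965 times itgb2, while in the mutant mpx was at 2.34 times itgb2.

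**Figure D3:**
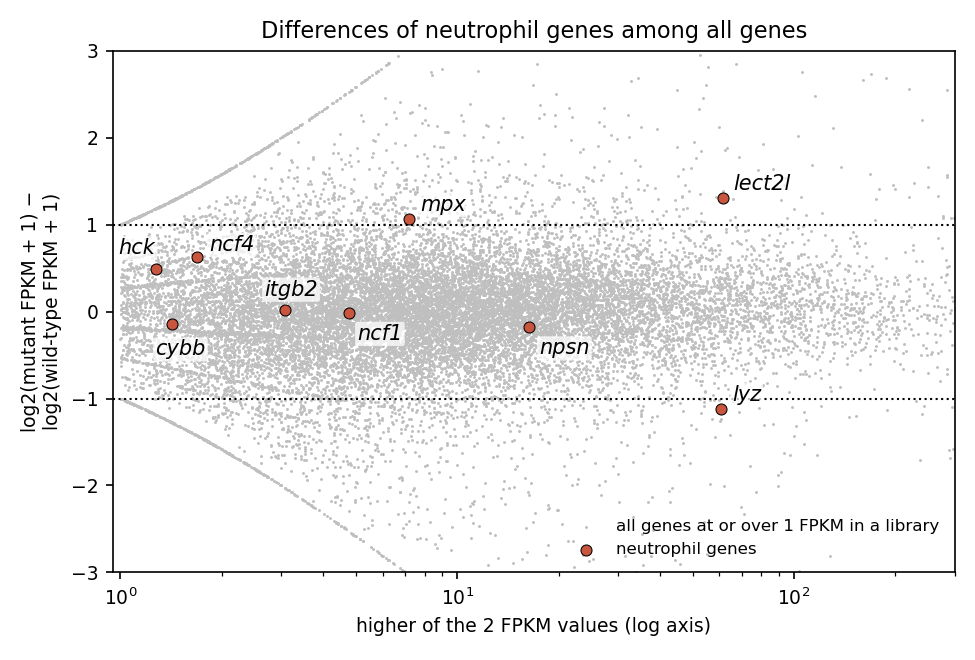
Difference of each gene, log2(mutant FPKM + 1) minus log2(wild-type FPKM + 1), against the higher of its FPKM values on a log axis, for all genes compared (grey) and the 9 neutrophil genes compared (red). Dotted lines mark 2-fold, and 515 of 20256 genes lie outside the axes. The points of mpx and lect2l lie above the upper line, lyz lies below the lower one, and the other 6 lie between them.

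In order of level, the wild-type library ran from lyz through lect2l, npsn, ncf1, itgb2, mpx, cybb, ncf4 and hck to csf3r. In the mutant the order was lect2l, lyz, npsn, mpx, ncf1, itgb2, ncf4, hck, cybb and csf3r. In the mutant mpx stood above ncf1 and itgb2, whose own levels differed little. With 1 library each, it cannot be said which neighbours in either order differ beyond the spread between pools.

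The share of genes past 2-fold varied with level. The class of lyz and lect2l, genes whose larger value was 20 to 100 FPKM, held 3710 genes, of which 4.53% were 2-fold or more higher and 4.85% lower. The class of mpx and npsn, from 5 to 20 FPKM, held 8039 genes, of which 4.96% were 2-fold or more higher and 5.98% lower. The other 5 members compared, ncf1, ncf4, cybb, hck and itgb2, had a larger value of 1 to 5 FPKM. That class held 7498 genes, 8.27% of them 2-fold or more higher and 9.62% lower. Since the directions of mpx and lyz were known when the members were chosen, these shares are background and nothing is read from the members' place in them.

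The authors' deposited table marks 5 members as tested and 5 as not tested, the latter all at 3.08 FPKM or less. In the authors' deposited table the p-value was under 0.05 for 1 of the 5 tested members, beside 4.37% of all genes tested. In the authors' deposited table it was 0.031 for lect2l, 0.0524 for mpx and 0.0725 for lyz. In the authors' deposited table npsn had a p-value of 0.766, ncf1 one of 0.966, and all 5 tested members a q-value of 0.996. None of them passed the authors' deposited q-value of 0.05, which 68 of 14613 tested genes did, or 0.465%. Those p-values and q-values compare these libraries and not the genotypes.

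**Figure D4:**
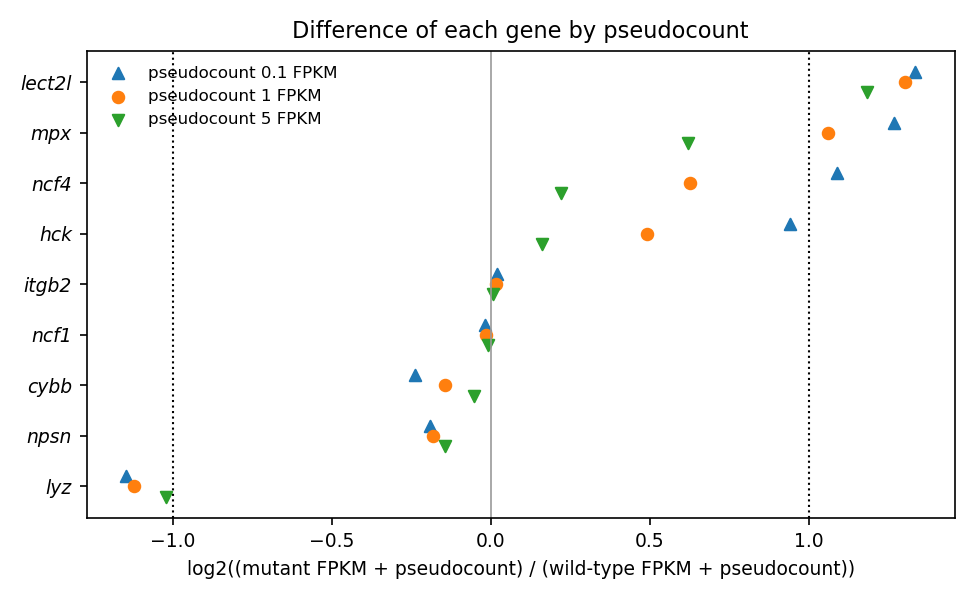
Difference of the 9 neutrophil genes compared, log2((mutant FPKM + pseudocount)/(wild-type FPKM + pseudocount)), with pseudocounts of 0.1, 1 and 5 FPKM. Dotted lines mark 2-fold. The markers of lyz and lect2l stay past the lines at every setting, mpx falls inside at 5 FPKM, and ncf4 passes at 0.1 FPKM.

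Low values were the most sensitive to the pseudocount, the constant added before taking logs. With 5 FPKM added, the difference of mpx was 0.62 in place of 1.06. The differences of lyz, -1.02, and lect2l, 1.18, stayed past 2-fold.

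Other genes of neutrophil function were described with lists written with earlier results of these data known. In the list of granule and secreted proteins, 7 of 12 genes were at least 2-fold higher in the mutant and 1, lyz, was at least 2-fold lower. Without the 4 members in it, 5 of 8 were higher and 0 lower, with a median difference of 1.14. Among those 5, pglyrp5 passed the floor only through the mutant library, at 0 and 1.19 FPKM, so it could not have counted as lower. For that reason nothing is read from this count. The gene s100a10b, also among the 5, had the highest level of the list in both libraries, at 276 and 615 FPKM. Which cells its transcripts came from was not tested. Over all genes compared the share higher was 6.08%. With a pseudocount of 5 FPKM, 4 of the 12 were higher, beside 1.46% of all genes, and by the authors' deposited q-value 1 of 10 tested. The matrix-degrading protease genes mmp9, at 5.07 and 53.1 FPKM, and mmp13a, at 4.31 and 12.4 FPKM, had large differences. The membrane protease gene adam8a was at 1.28 and 10.9 FPKM. These proteases are also made by other cells.

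**Figure D5:**
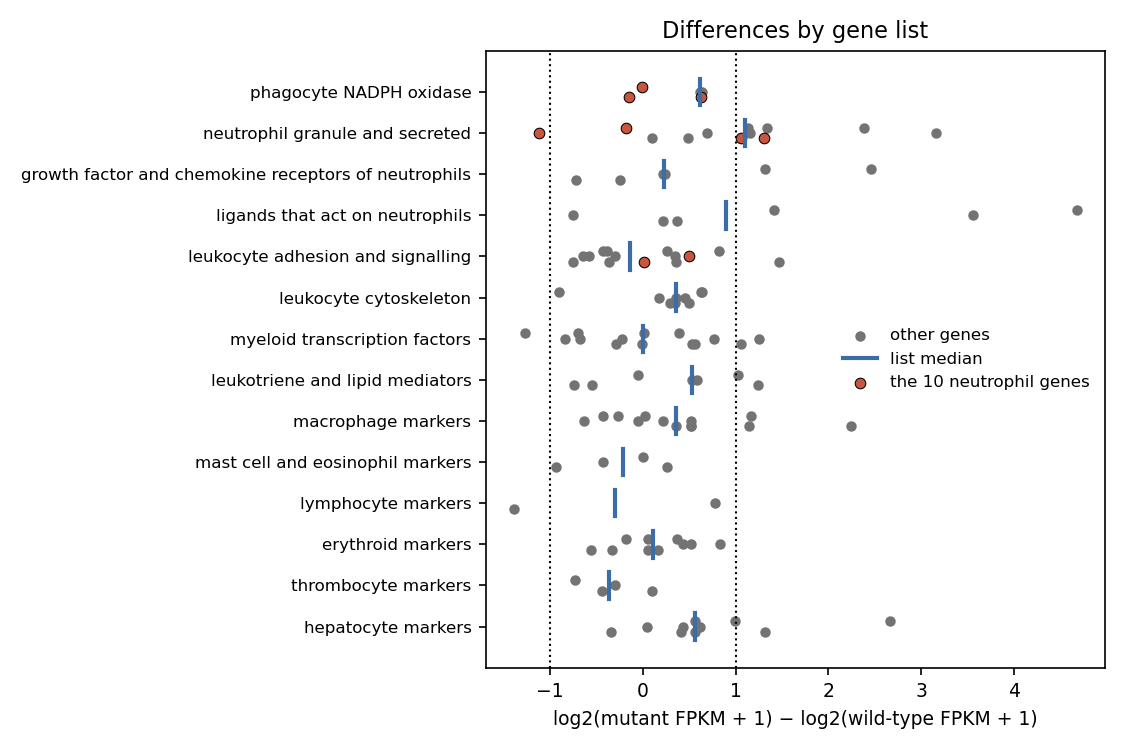
Difference of each gene compared, log2(mutant FPKM + 1) minus log2(wild-type FPKM + 1), by gene list, with the 10 neutrophil genes in red where they are in a list and passed the floor, other genes in grey and the list median as a bar. Dotted lines mark 2-fold. The granule and secreted list spans from lyz at -1.12 to mmp9 at 3.16.

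Receptor genes of neutrophils, and the ligand genes listed beside them, moved unevenly. Of 6 receptor genes compared, 2 were higher by 2-fold or more and 0 lower, with a median of 0.23. Those were the tumour necrosis factor receptor gene tnfrsf1a, at 18.1 and 46.4 FPKM, and si:ch211-272h9.1, at 0.287 and 6.08 FPKM. The latter was matched by gene ID to the leukotriene receptor ltb4r at a shared locus. It passed the floor only through the mutant library, so nothing is read from this count. Over all genes compared, 6.08% were as much higher and 7.12% lower. The gene cxcr4b, for the chemokine receptor that retains neutrophils in blood-forming tissue, was at 5.64 and 3.03 FPKM, a difference of -0.72.

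Ligand genes are given by their values alone, because those that were low in the wild type passed the floor only through the mutant library. Of the 13 ligand genes listed, 9 were found. Whether each acted on neutrophils here was not tested. The chemokine gene cxcl-c1c, matched by gene ID to cxcl18b, was listed at 0 in the wild-type library and at 24.6 FPKM in the mutant. The cytokine gene il11a was listed at 0 and at 10.8 FPKM, and a row of il34, at a locus shared by 12 genes, stood at 0.342 and 2.58 FPKM. The gene cxcl12b, which encodes a ligand of the Cxcr4 receptors, was at 16.6 and 9.47 FPKM, a difference of -0.75. In the same list cxcl12a went the other way, at 59.4 and 68.9 FPKM, a difference of 0.21.

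Genes of leukocyte adhesion and signalling, which include itgb2 and hck, had a median of -0.14. That sign was not stable, with 0.34 without genes at a shared locus, 0.36 with a floor of 5 FPKM (2 rows) and 0.02 with no floor. Of 14 rows compared, 1 was at least 2-fold higher and 0 lower, beside 6.08% and 7.12% of all genes compared. The higher one was a row of the phosphatase gene ptpn6, at 1.42 and 5.70 FPKM. The other row of ptpn6 was at 2.41 and 3.32 FPKM, a difference of 0.34. The kinase gene lyn, a relative of hck, was at 1.38 and 3.22 FPKM. Another relative, yrk, matched by gene ID to fgr at a shared locus, went the opposite way to lyn, with a difference of -0.75. The phosphatase gene inpp5d, a brake on phagocyte signalling, was at 1.97 and 0.900 FPKM. Genes of the leukocyte cytoskeleton had a median of 0.36, with 0 of 9 past 2-fold either way and 8 above 0. The actin regulator wasb, at 2.18 and 0.701 FPKM, was the 1 below 0 and passed the floor only through the wild-type library. The rows of that list under the floor were lower in the mutant or at 0 in both libraries. With no floor the list median was 0.32 (12 rows).

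The list of myeloid transcription factors had a median of 0.00, with 2 of 14 rows at least 2-fold higher and 1 lower. Its median was 0.20 without genes at a shared locus, and also 0.20 with a floor of 5 FPKM (6 rows). The gene cebpb, a factor of emergency granulocyte production in mammals, was at 82.8 and 174 FPKM, and spi1a, a PU-box factor of myeloid cells, at 0.846 and 3.38 FPKM. The 1 lower was gfi1b, at 1.42 FPKM in the wild-type library and listed at 0 in the mutant. It passed the floor only through the wild-type library, and spi1a passed it only through the mutant. Of the 14 rows, 7 lay above 0 and 7 below. Short of the 2-fold line, lmo2 was at 6.63 and 3.25 FPKM, a difference of -0.84. Over all genes compared, 6.08% were 2-fold or more higher and 7.12% lower.

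Macrophages share many genes with neutrophils, so their markers were set beside the members. Of 13 macrophage marker genes compared, 3 were at least 2-fold higher in the mutant and 0 lower, with 9 above 0 and a median of 0.36. Over all genes compared, 6.08% were as much higher and 7.12% lower. Among the 3, marco and c1qb passed the floor only through the mutant library, so nothing is read from this count. With a pseudocount of 5 FPKM 1 of the 3 stayed past 2-fold. The summed level of the macrophage markers, over all 16 matched, was 55.2 FPKM in the wild-type library and 80.4 FPKM in the mutant. The defining marker mpeg1 was at 3.50 and 5.46 FPKM and mfap4 at 2.89 and 3.51 FPKM. On the other side, cd74a, for a chaperone of class II histocompatibility molecules, was at 1.68 and 0.727 FPKM, cd74b at 2.58 and 1.66 FPKM, and the phagocytic receptor gene timd4 at 2.18 and 1.64 FPKM. The scavenger receptor gene marco, the complement gene c1qb and, under the floor, the microglial receptor gene p2ry12 were listed at 0 in the wild-type library and at 1.21, 1.24 and 0.852 FPKM in the mutant. The cathepsin gene ctssb.1, at 3.86 and 21.9 FPKM, was furthest from 0. The part of macrophage transcripts in the values of lyz, hck, itgb2 and the oxidase genes was not tested.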

How the data were processed

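Per the labels, each library came from total RNA of 20 whole larvae (Qiagen RNeasy Mini kit, standard Illumina preparation). The submitters' processing notes name build Zv9, CASAVA and Bowtie, with no versions, order or settings. The mutant's title spells the allele differently from the series text, and its column was matched through the mutant code in the table. The deposited values were read as FPKM: per the file headers the layout is that of a differential expression table, but the unit and the program are not named. Deposited p-values and q-values are the authors' own, and where the table marks a gene as not tested they are 1.

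From the FPKM, differences were computed with a pseudocount of 1 FPKM in Python 3.11.15 with pandas 2.3.3 and numpy 2.4.6, and the code was tested on simulated data. The number of fragments per library is unknown. Precision of single values is unknown. Gene IDs come from the second identifier column, and 10 of 10 members' IDs were in the gene name table, 8 with the same symbol. That table gives the ID of mpx as EPX and of lect2l as LECT2. Starts are printed 1-based, since 485 gene lengths equalled those of a RefSeq table if starts count from 0 and 76 if from 1. Strand is not stated to be kept.

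The members, lists and thresholds were chosen with earlier results of these data known. Named genes are the 10 members, up to 4 genes with the largest difference in each other list, and the first 2 markers of other cell types. A few were named after their values were seen (CSF3, LECT2 (4 of 4), hp, ttr, cd74b, timd4, alox5ap, lta4h, ltc4s and p2ry12). So were pglyrp5, lck, zap70, cd4, cd79b, s100a10b, cxcl12a and the other row of ptpn6. Alternatives changed the pseudocount, floor, scaling, shared loci and call rule. No promoter or protein sequence was used here, so the planned motif search was not run. A listed gene is not reported here.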

Additional observations from a re-analysis of the deposited data

How the results depend on the processing

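The 2 higher members and 1 lower member kept these counts with no floor, with a floor of 5 FPKM, under both rescalings and without genes at a shared locus. Over all genes those settings gave 4.8% to 6.96% higher and 5.65% to 7.8% lower. With a pseudocount of 0.1 FPKM there were 3 higher and 1 lower, against 1866 higher (9.21%) and 2219 lower (11%) among all genes. The member added there, ncf4, passed the floor only through the mutant library and could not have counted as lower. With 5 FPKM there were 1 higher and 1 lower, against 296 (1.46%) and 361 (1.78%), where the default gave 1232 (6.08%) and 1442 (7.12%). By the deposited q-value there were 0 higher and 0 lower of 5 tested members, against 29 (0.198%) and 39 (0.267%) of all tested genes. The members' median of 0.02 was 0.0076 with a pseudocount of 5 FPKM, 0.16 with no floor, 0.44 with a floor of 5 FPKM (4 members), 0.021 with the median ratio scaled to 1, 0.024 at equal summed FPKM, 0.00058 without the shared locus, and -0.014 over the 5 members the authors tested. Under the floors, the shared locus and the q-value it is a median of different members. The signs of ncf1 and itgb2 were the same under both rescalings, at -0.0073 and 0.021 with the median ratio scaled to 1 and at -0.0054 and 0.024 at equal summed FPKM. Among the other lists, a pseudocount of 5 FPKM left 0 genes 2-fold higher or lower in adhesion and signalling (1 higher by default) and in lipid mediators (2 higher), and 1 higher and 0 lower among transcription factors (2 and 1). With 0.1 FPKM, 3 were higher and 3 lower among transcription factors, and 3 higher and 2 lower among lipid mediators. The lists held 14 rows for adhesion and signalling, 14 for transcription factors and 7 for lipid mediators. Of all genes compared, 9.21% were higher and 11% lower with 0.1 FPKM, and 1.46% and 1.78% with 5 FPKM. Several genes counted, such as spi1a, gfi1b, alox5a, ltc4s and alox5ap, passed the floor through 1 library only, so nothing is read from these counts. No paired analysis was possible because each group had 1 library. Genes near 1 FPKM rest on few fragments.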

Other observations

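Genes for lipid mediators that act on neutrophils went both ways. The prostaglandin genes lay higher in the mutant, with the E synthase gene ptges at 6.04 and 15.6 FPKM and the cyclooxygenase genes ptgs2b at 13.2 and 27.8 FPKM and ptgs2a at 18.8 and 28.6 FPKM. Of the leukotriene genes, the lipoxygenase alox5a was at 1.24 and 0.332 FPKM and the synthase ltc4s at 1.03 and 0.386 FPKM. The lipoxygenase partner alox5ap was at 0.556 and 1.24 FPKM and the hydrolase lta4h at 43.7 and 42.2 FPKM. Of the 7 genes compared in this list, 2 were at least 2-fold higher and 0 lower, with a median of 0.52. The shares over all genes compared were 6.08% and 7.12%. Both alox5a and ltc4s passed the floor only through the wild-type library, and alox5ap only through the mutant.

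With a pseudocount of 1 FPKM, the markers of other blood lineages compared were within 2-fold, rag1 excepted. Over all genes compared, only 6.08% were 2-fold or more higher and 7.12% lower, so nothing is read from these small counts. With 0.1 FPKM, gata1a (difference 1.38) and il7r (1.65) also passed 2-fold upwards, and a row of epor (-1.21) and GP9 (-1.26) downwards. At that setting 9.21% of all genes compared were as much higher and 11% lower. Here gata1a passed the floor only through the mutant library, and that row of epor and GP9 only through the wild type. Nothing is read from these calls, since each could go 1 way only. By default, erythroid markers had 0 of 10 rows past 2-fold either way and a median of 0.11, with the globin gene hbbe1.1 at 568 and 731 FPKM. Thrombocyte markers had 0 of 4 past 2-fold and a median of -0.37. The recombination gene rag1, a mark of developing lymphocytes, was at 3.12 FPKM in the wild-type library and 0.572 FPKM in the mutant. The other lymphocyte gene compared, the cytokine receptor gene il7r, went the opposite way, at 0.355 and 1.33 FPKM. It passed the floor only through the mutant library, and rag1 only through the wild type. Under the floor, rag2 was lower in the mutant, and a row of lck, zap70 and cd4 were listed at 0 there. Also under the floor, cd79b went the way of il7r and was listed at 0 in the wild type. Both rag2 and that row of lck lie at shared loci. Of the 4 mast cell and eosinophil genes compared, 0 passed 2-fold, and the carboxypeptidase gene cpa5 was at 396 and 206 FPKM. The other genes compared in that list, gata2a, kita and kitb, stood at 6.30 FPKM or less in both libraries. Which cells the cpa5 transcripts came from was not tested. These values have no replicate check.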
